A study of Mus musculus with 6 samples.

Results

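Endothelial cells line every vessel of the heart, and *Pecam1*, *Cdh5*, *Kdr*, *Flt1*, *Flt4*, *Tie1*, *Tek*, *Eng*, *Vwf* and *Emcn* are genes by which they are recognised. These 10 genes were taken by symbol from the GENCODE M21 annotation, and each matched 1 of the 54232 Ensembl identifiers in the count files. The cardiac RNA came from the ventricles of wild-type C57BL/6J mice fed western diet (WD), which makes mice obese. After 15 weeks of WD, 3 mice were needle-fed Tributyrin at 5 g/kg body weight and 3 mice were given vehicle, named PBS in the labels, over 3 weeks. Tributyrin is a triglyceride that releases butyrate. Both groups shared the diet, strain and genotype, and the labels of these samples state neither age nor sex. Chow-fed mice were not analysed here, so the comparison of WD + Tributyrin with WD + vehicle speaks of the treatment on top of the diet. The question was whether transcripts of the heart differed with Tributyrin.

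Vascular endothelial growth factors (VEGFs) reach the endothelium through tyrosine kinase receptors. VEGFR2, encoded by *Kdr*, carries most of the signal for growth and permeability, VEGFR1, encoded by *Flt1*, binds VEGF-A tightly and also exists as a soluble decoy, and VEGFR3, encoded by *Flt4*, is best known from lymphatic vessels. Angiopoietins act on a second receptor pair, Tie2 from *Tek* and its partner Tie1, which stabilise resting vessels. Endoglin from *Eng* is a co-receptor for bone morphogenetic proteins, while *Pecam1* and *Cdh5* encode adhesion proteins of the junctions between endothelial cells. *Vwf* encodes von Willebrand factor, a clotting protein stored in Weibel-Palade bodies and also made by megakaryocytes, and *Emcn* encodes endomucin, a sialomucin of capillary and venous endothelium. Since the RNA came from ventricle tissue rather than isolated cells, fewer endothelial cells and less RNA per endothelial cell cannot be told apart.

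The libraries held 20369746 to 32734485 counts on genes, of which 23.6% to 28.8% were mitochondrial. Atrial transcripts stood apart in 2 vehicle mice, with a summed level of 4786 and 4539 normalized counts for 5 atrial genes in vehicle mice 1 and 2 against 815.4 to 1687 in the other 4 mice. *Nppa*, 1 of the 5, did not follow this, with 554.0 and 484.6 in vehicle mice 1 and 2 and 1046 in vehicle mouse 3. Over the 14129 tested genes with a transcript sequence, the deviation of a library from the mean correlated with the logarithm of transcript length at r = -0.26 in Tributyrin mouse 3 and r = 0.15 in Tributyrin mouse 2, and with GC content at r = -0.12 in Tributyrin mouse 1. These are descriptions across genes, which are not independent replicates. The Y-linked *Ddx3y* was found in every library at 1802 to 2241 normalized counts. *Xist*, which female cells express, had at most 6.24 in any library, so the RNA of all 6 mice was that of males.

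All 10 genes were found in every library. The lowest count of any of the 10 genes in a library was 505 and the highest 5962, so counting error alone gave a relative SD of at most 4.45%, and all 10 passed the filter on low counts. On a per-length scale (RPKM, reads per kb of exon and per unit of library depth, here from counts divided by the size factor of the library), *Cdh5* was at 38.5 and *Eng* at 37.8 over the 6 mice, and the order of these neighbours differed between mice, with *Cdh5* above *Eng* in 3 of 6. *Pecam1* followed at a per-length level of 22.1, apart from both of its neighbours in range. *Tie1* was at 18.6 and *Kdr* at 15.4, and *Tie1* lay above *Kdr* in 6 of 6 mice although their ranges over the mice overlapped. *Tek* at 11.9 and *Flt1* at 11 could not be ordered on this scale, since *Tek* was the higher in 4 of 6 mice. *Emcn* (4.94), *Vwf* (3.57) and *Flt4* (2.75) were the lowest on the same scale, and *Vwf* lay above *Flt4* in 5 of 6 mice. The length used was that of all annotated exons of a gene joined. It was 13504 bases for *Flt1* and 6228 for *Pecam1*, whose longest transcripts have 6895 and 3441, but 4712 against 4654 for *Tek*. The order of the genes thus depends on the length chosen, and another length was not tested.

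**Figure D1:**
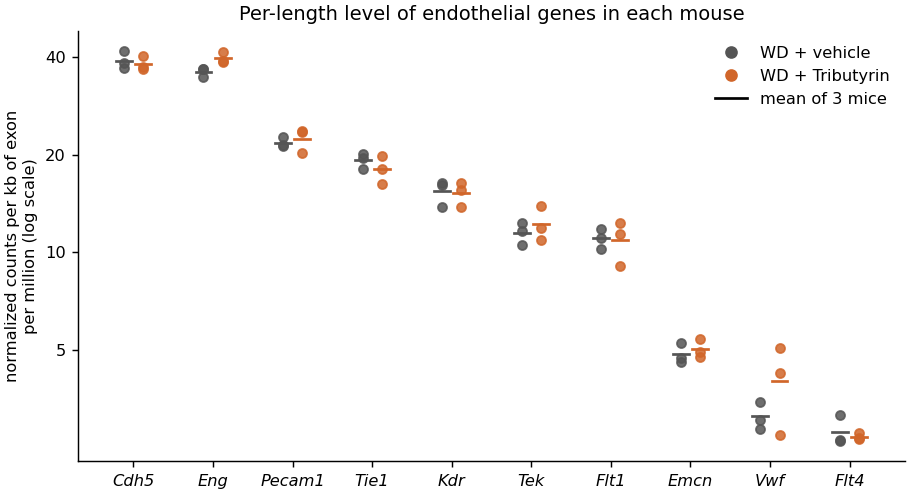
Per-length level of the 10 endothelial genes (RPKM from normalized counts, log scale) in each WD + vehicle mouse (grey) and WD + Tributyrin mouse (orange), with bars at the mean of 3 mice. Levels run from about 38.5 for *Cdh5* to 2.75 for *Flt4*, and the points of the groups lie side by side except for *Eng*, where the orange points are above the grey.

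The DNA in front of these genes is shown for 4 of them, the main VEGF receptor pair, the angiopoietin receptor *Tek* and *Eng*, the 1 gene whose groups did not overlap in the comparison. RefSeq promoters of the GRCm38.p6 build were found for 7 of the 10 genes, and the 250 bases before the start are printed 5′ to 3′ on the strand of the gene, with each ETS core (GGAA, or TTCC where it lies on the other strand) in capitals. ETS proteins such as ERG and FLI1 are transcription factors of the endothelium. The windows are chr5:75978456-75978705 (minus strand) for *Kdr*, chr5:147726012-147726261 (minus strand) for *Flt1*, chr4:94739039-94739288 (plus strand) for *Tek* and chr2:32646345-32646594 (plus strand) for *Eng*.
Kdr: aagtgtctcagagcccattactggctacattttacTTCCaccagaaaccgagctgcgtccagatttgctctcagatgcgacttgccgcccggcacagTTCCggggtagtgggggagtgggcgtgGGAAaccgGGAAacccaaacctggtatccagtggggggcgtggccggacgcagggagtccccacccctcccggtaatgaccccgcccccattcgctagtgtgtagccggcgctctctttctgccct
Flt1: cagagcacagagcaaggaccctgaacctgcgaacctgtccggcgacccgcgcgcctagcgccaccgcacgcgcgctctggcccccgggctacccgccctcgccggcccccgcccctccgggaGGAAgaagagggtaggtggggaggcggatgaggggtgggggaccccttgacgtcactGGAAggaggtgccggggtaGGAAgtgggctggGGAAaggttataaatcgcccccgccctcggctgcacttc
Tek: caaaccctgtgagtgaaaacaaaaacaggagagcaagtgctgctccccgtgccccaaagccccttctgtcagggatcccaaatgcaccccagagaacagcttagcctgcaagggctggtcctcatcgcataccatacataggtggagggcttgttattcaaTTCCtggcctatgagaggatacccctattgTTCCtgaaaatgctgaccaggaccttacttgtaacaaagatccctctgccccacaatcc
Eng: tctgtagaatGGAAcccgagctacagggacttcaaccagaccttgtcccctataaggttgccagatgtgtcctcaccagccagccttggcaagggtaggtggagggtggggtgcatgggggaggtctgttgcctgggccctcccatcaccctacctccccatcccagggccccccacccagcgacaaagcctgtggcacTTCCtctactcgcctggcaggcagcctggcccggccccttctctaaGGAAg
The ETS core was found 4 times in the windows of *Kdr* and *Flt1*, 2 times in that of *Tek* and 3 times in that of *Eng*, where the median over 32851 promoter windows of this length was 3 and 93.4% held at least 1. The longer letters AGGAAG, which contain the core, occurred on either strand in 29.5% of all windows and in those of *Flt1*, *Eng*, *Emcn* and *Tie1*. The GC box GGGCGG, in 32.7% of all windows on either strand, was present in those of the VEGF receptors *Kdr* (2 matches), *Flt1* (3) and *Flt4* (3) and had 0 matches in those of *Tie1*, *Tek*, *Eng* and *Emcn*. TATAAA, in 12.4% of all windows on either strand, was found only in that of *Flt1* among the 7. The letters AGATAA of a GATA core, in 9.99% of all windows, had 0 matches in the 7. The starts are those of RefSeq. By the GENCODE positions the window of *Flt4* (chr11:49609429-49609678) lies within the gene, and that of *Tie1* (chr4:118489850-118490099) lies mostly within it. Such matches describe letters and are not shown to be binding sites.

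With Tributyrin the endothelial genes had a median fold change near 0. Of the 10 genes, 5 were higher and 5 lower, with a median log2 fold change (Tributyrin over vehicle) of 0.013, where the median over all 14133 genes tested was -0.0013 and 49.6% of them were higher. With library size alone as the scaling the median of the 10 genes was -0.059, beside -0.074 for all genes. In the quasi-likelihood test of edgeR, adjusted over all genes tested by Benjamini-Hochberg, 0 of the 10 genes passed a false discovery rate (FDR) of 10% or 5%, as did 0% of all genes tested, and the adjusted p was 0.999 for each of the 10. At an unadjusted p under 0.05 there were 0 of the 10 genes in that fit, against 4.25% of all genes (1.97% higher and 2.28% lower with Tributyrin), and 1 gene, *Vwf*, by DESeq2, against 1.8% of the 25578 genes that DESeq2 gave a p. DESeq2 called 0 of the 10 genes at an FDR of 10%, and 0.0835% of the 13179 genes for which it gave an adjusted p. The 95% interval of the log2 fold change included 0 for all 10 genes. For the 8 genes other than *Eng* and *Vwf* the intervals lay between -0.28 and 0.31, which bounds the differences that these 6 mice leave possible. In 1 of the 10 genes, *Eng*, the normalized counts (counts divided by the DESeq2 size factor of the library) of the groups did not overlap, where 8.91% of all genes tested showed this, 4.26% with the Tributyrin mice higher and 4.65% with them lower.

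**Figure D2:**
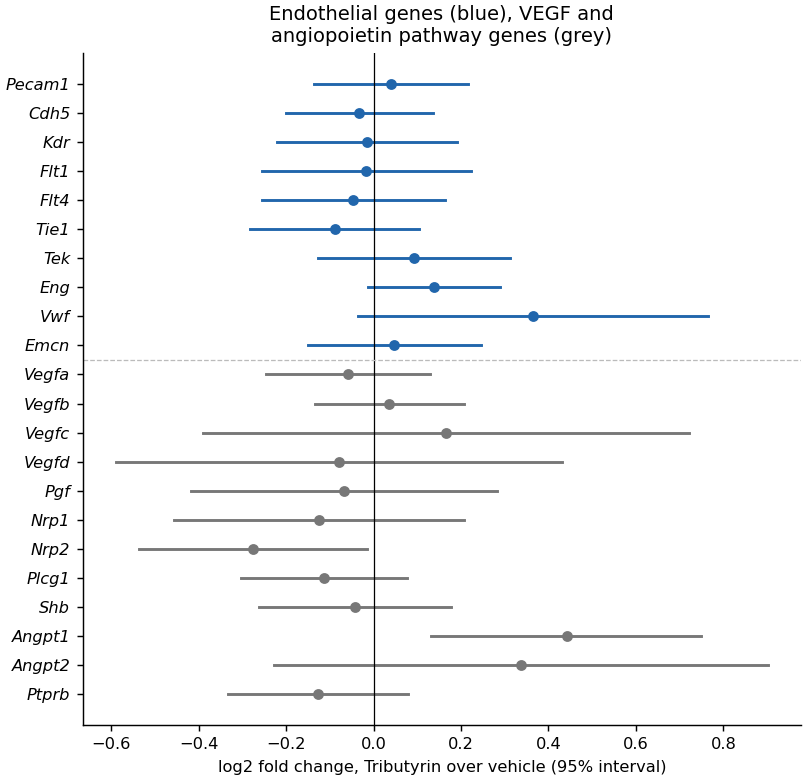
Log2 fold change of Tributyrin over vehicle with its 95% interval from edgeR for the 10 endothelial genes (blue, above the dashed line) and for the VEGF ligands, co-receptors, adaptors and angiopoietin pathway genes that passed the low-count filter (grey). All 10 blue intervals cross 0, and *Angpt1* at 0.44 and *Nrp2* at -0.28 are the grey intervals that do not.

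For the VEGF receptors the difference between groups was within the spread between mice. *Kdr* (ENSMUSG00000062960, chr5:75932827-75978458, minus strand) had 3836, 3285 and 3907 normalized counts in the vehicle mice and 3714, 3902 and 3281 in the Tributyrin mice. Both groups held 1 low mouse, at 3285 and 3281, and the means of 3676 ± 341 and 3632 ± 319 (SD, n = 3) were within each other's spread (log2 fold change -0.015, standard error 0.093; two-sided exact permutation test, p = 0.7). *Flt1* (ENSMUSG00000029648, chr5:147561604-147726011, minus strand) had 3641, 3928 and 4210 normalized counts with vehicle and 3234, 4047 and 4358 with Tributyrin. The Tributyrin mice thus held both the lowest and the highest *Flt1* value, and the log2 fold change was -0.017 (standard error 0.108). Reads were counted per gene, so membrane-bound and soluble VEGFR1 were not separated.

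*Flt4* (ENSMUSG00000020357, chr11:49609263-49652739, plus strand) had 566.5, 571.5 and 679.6 normalized counts with vehicle and 575.1, 601.2 and 579.3 with Tributyrin. Vehicle mouse 3 was high and the other 5 mice lay close together, so that the log2 fold change of -0.05 (standard error 0.095) became 0.043 without that mouse. The lymphatic markers *Lyve1*, a hyaluronan receptor, and *Prox1*, a transcription factor of lymphatic identity that cardiomyocytes also express, had log2 fold changes of -0.06 (standard error 0.193) and -0.01 (standard error 0.239). Of the 5 lymphatic genes tested, 1 was higher and 4 were lower, and 0 had an unadjusted p under 0.05.

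The ratio of per-length levels of *Flt1* to *Kdr* varied more within the groups than between them. It was 0.635, 0.800 and 0.721 in the vehicle mice and 0.582, 0.693 and 0.888 in the Tributyrin mice. The means were 0.718 ± 0.083 and 0.721 ± 0.155 (SD, n = 3; two-sided exact permutation test, p = 1). The corresponding ratio of *Flt4* to *Kdr* was 0.181 ± 0.017 with vehicle and 0.178 ± 0.014 with Tributyrin (SD, n = 3).

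The ligands of these receptors were also without a call. On the per-length scale *Vegfa*, the main ligand of VEGFR2, was at 44.9 with vehicle and 43.1 with Tributyrin. Its normalized counts were 5006, 4629 and 5563 with vehicle and 4949, 5061 and 4561 with Tributyrin, and the groups overlapped (log2 fold change -0.06, standard error 0.084). *Vegfb*, a VEGFR1 ligand abundant in heart muscle, was at 0.04 (standard error 0.077) on the same log2 scale. The VEGFR3 ligands *Vegfc* and *Vegfd* (0.17 and -0.08) and placental growth factor, *Pgf* (-0.07), rested on 60.3 to 200.1 normalized counts and had standard errors of 0.251, 0.230 and 0.158. In all, 2 of 5 ligands were higher, 3 were lower and 0 had an unadjusted p under 0.05.

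Among the VEGF co-receptors, *Nrp2*, which encodes neuropilin-2, had an unadjusted p of 0.0405 from edgeR's model and did not pass the adjustment (adjusted p 0.999). It had 1105, 1265 and 1131 normalized counts with vehicle and 870.6, 1157 and 861.5 with Tributyrin. Tributyrin mouse 2 lay among the vehicle mice and the other Tributyrin mice were lower, which gave a log2 fold change of -0.28 (standard error 0.118). With Tributyrin mouse 2 left out the value was -0.43, and the unadjusted p stayed under 0.05 without that mouse or without vehicle mouse 1 but not without any of the other 4 mice. *Nrp1*, neuropilin-1, was at -0.13 (standard error 0.150), with Tributyrin mouse 3 lowest at 1648. The signalling genes *Plcg1*, a phospholipase downstream of VEGFR2, and *Shb*, an adaptor that binds it, were at -0.11 (standard error 0.086) and -0.04 (standard error 0.099), and *Sh2d2a* did not pass the filter on low counts.

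The angiopoietin receptors had fold changes of opposite sign, each within the spread between mice. *Tek* (ENSMUSG00000006386, chr4:94739289-94874976, plus strand) had 1525, 1445 and 1303 normalized counts with vehicle and 1718, 1477 and 1357 with Tributyrin. Tributyrin mouse 1 was the highest of the 6, and the log2 fold change of 0.09 (standard error 0.099) was -0.0017 without it. *Tie1* (ENSMUSG00000033191, chr4:118471191-118490061, minus strand) had 2326, 2608 and 2522 normalized counts with vehicle and 2103, 2559 and 2345 with Tributyrin. There the same mouse was the lowest, and the log2 fold change was -0.09 (standard error 0.087). The per-length ratio of *Tie1* to *Tek* was 1.17 in that mouse and 1.46 to 1.85 in the other 5, with means of 1.68 ± 0.20 with vehicle and 1.5 ± 0.28 with Tributyrin (SD, n = 3; two-sided exact permutation test, p = 0.5).

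*Angpt1*, the activating ligand of Tie2 made by cells around the vessels, was the pathway gene with the lowest unadjusted p. It had 810.7, 573.0 and 641.1 normalized counts in the vehicle mice and 1069, 852.5 and 820.2 in the Tributyrin mice. Every Tributyrin mouse was above every vehicle mouse, with means of 913.8 ± 135 and 674.9 ± 122 (SD, n = 3; two-sided exact permutation test, p = 0.1, below which 3 mice against 3 cannot go). The log2 fold change was 0.44 (standard error 0.139, 95% interval 0.13 to 0.75), with an unadjusted p of 0.00967 and an adjusted p of 0.999 by edgeR. Leaving out 1 mouse at a time gave values between 0.318 without Tributyrin mouse 1 and 0.60 without vehicle mouse 1, and the unadjusted p was under 0.05 in all 6. *Angpt2*, whose product competes with angiopoietin-1, was at 0.34 (standard error 0.254), and *Ptprb*, encoding the phosphatase VE-PTP that holds Tie2 in check, at -0.13 (standard error 0.093). *Angpt4* did not pass the low-count filter.

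*Eng* (ENSMUSG00000026814, chr2:32646595-32682669, plus strand) had the lowest unadjusted p of the 10 genes in the edgeR fit, close to that of *Vwf*, which was the lower by DESeq2. The vehicle mice had 3904, 3699 and 3911 normalized counts and the Tributyrin mice 4119, 4421 and 4131. All Tributyrin mice were above all vehicle mice, with means of 4223 ± 171 and 3838 ± 120 (SD, n = 3; two-sided exact permutation test, p = 0.1, again the lowest this design can give). The log2 fold change was 0.14 (standard error 0.068, 95% interval -0.012 to 0.29), with an unadjusted p of 0.0673 in edgeR's model, at rank 832 of 14133 genes. With counts scaled by library size alone the groups overlapped and the value was 0.068. *Fpgs*, on the opposite strand, shares 61 exonic bases with *Eng* and had 99 to 247 counts, against 3148 to 4838 for *Eng*, and the strand setting of the counting is unknown.

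Other genes of the endoglin pathway had no common direction. Of the 8 tested, 3 were higher and 5 lower with a median log2 fold change of -0.03, and 0 had an unadjusted p under 0.05. *Bmpr2*, the type II receptor, was at 0.05 (standard error 0.112), *Smad5*, a transducer of the signal, at -0.07 (standard error 0.082), and *Id3*, a target gene, at 0.18 (standard error 0.132), with Tributyrin mouse 3 highest at 1321. The ligand genes *Gdf2* and *Bmp10* had at most 7.45 and 1.04 normalized counts in a library and did not pass the filter.

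*Vwf* (ENSMUSG00000001930, chr6:125546774-125686679, plus strand) had the largest log2 fold change of the 10 genes and the largest spread. Its normalized counts were 1465, 1207 and 1287 in the vehicle mice and 1160, 2139 and 1792 in the Tributyrin mice. Tributyrin mice 2 and 3 were above every vehicle mouse, while Tributyrin mouse 1 was the lowest of all 6. The SD was 29.2% of the mean with Tributyrin and 9.98% with vehicle, around means of 1697 ± 496 and 1320 ± 132 (SD, n = 3; two-sided exact permutation test, p = 0.4). The log2 fold change of 0.36 (standard error 0.181, 95% interval -0.04 to 0.77) had an unadjusted p of 0.0704 in edgeR's model. It was 0.58 without Tributyrin mouse 1 and 0.16 without Tributyrin mouse 2. It was called at an FDR of 10% by edgeR without a filter on low counts (adjusted p 0.018), a fit that called 0.653% of the 25581 genes in it, and over the other settings of edgeR, DESeq2 and limma the adjusted p was 0.526 to 1.

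Genes of Weibel-Palade bodies, where von Willebrand factor is stored, had no common direction. Of the 4 tested, 2 were higher and 2 lower, and *Cd63*, a membrane protein of these granules, had a log2 fold change of -0.11 (standard error 0.120). The 6 platelet and megakaryocyte genes, none of them at 0 in all libraries, had a summed level of 257.8 to 354.1 normalized counts with vehicle and 232.9 to 397.5 with Tributyrin. Of the 5 that passed the filter 4 were higher and 1 lower, with a median log2 fold change of 0.35 and 0 at an unadjusted p under 0.05. The 1 lower gene was *Pf4*, platelet factor 4, at -0.13 (standard error 0.154). *Gp1ba* was at 0.005 (standard error 0.238), and *Gp9* at 1.37 (standard error 0.71) on 1.55 to 21.9 normalized counts. *Ppbp* was at 0.88 (standard error 0.632) and *Itga2b* at 0.35 (standard error 0.388). Both were highest in Tributyrin mouse 2, at 74.0 and 60.3 normalized counts, and lowest in Tributyrin mouse 3, at 9.18 and 19.5. *Pf4*, at 143.4 to 212.4, made up the largest part of the sum. Tributyrin mouse 2 had the highest *Vwf* level and the highest platelet sum, while Tributyrin mouse 3 had the next *Vwf* level and the lowest platelet sum, and Tributyrin mouse 1 had the lowest *Vwf* level with a platelet sum of 336.6. The part of platelets in the *Vwf* values was not tested.

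The endocardial list genes *Npr3* and *Plvap* and the smooth muscle gene *Myh11* also differed between Tributyrin mouse 1 and the other Tributyrin mice. *Npr3*, the natriuretic peptide clearance receptor that marks endocardium, had 486.4, 459.8 and 457.2 normalized counts with vehicle and 363.7, 618.6 and 784.6 with Tributyrin. *Plvap*, which encodes the diaphragm protein of fenestrated endothelium, had 241.1, 141.9 and 190.1 with vehicle and 155.2, 310.7 and 309.7 with Tributyrin. In both, Tributyrin mice 2 and 3 were above every vehicle mouse and mouse 1 was not, as for *Vwf*. *Cytl1*, the other gene of the endocardial list, had 361.7, 253.6 and 242.3 with vehicle and 188.0, 297.9 and 424.4 with Tributyrin. Vehicle mouse 1 was thus above Tributyrin mouse 2, and the log2 fold change of *Cytl1* was 0.08 (standard error 0.255). *Myh11*, the smooth muscle myosin heavy chain, had 1025, 978.6 and 934.3 with vehicle and 1071, 1915 and 1436 with Tributyrin. Its groups did not overlap, where 8.91% of all genes tested showed this. Its log2 fold change was 0.59 (standard error 0.168, unadjusted p 0.00535 and adjusted p 0.999 from edgeR's quasi-likelihood test), where *Npr3* was at 0.33 (standard error 0.215) and *Plvap* at 0.44 (standard error 0.263). An unadjusted p under 0.05 in that test was reached by 4.25% of all genes. The most abundant genes of the smooth muscle and pericyte list, *Rgs5* and *Abcc9*, did not share the low value of Tributyrin mouse 1. They had 14220, 13660 and 15220, and 11340, 12960 and 9866 normalized counts in Tributyrin mice 1, 2 and 3. The part of endocardium or of larger vessels in the ventricle samples was not tested.

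**Figure D3:**
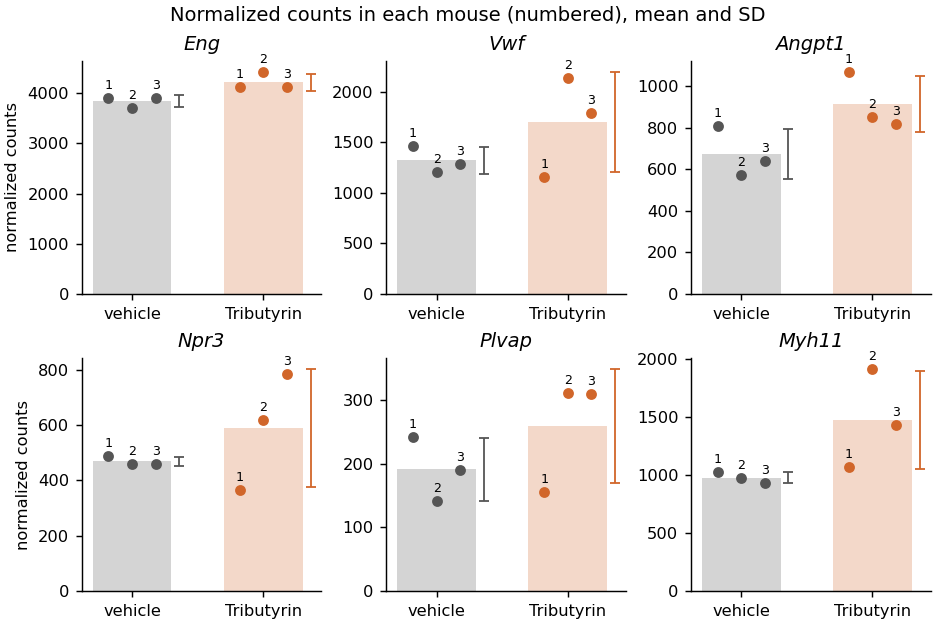
Normalized counts of *Eng*, *Vwf*, *Angpt1*, *Npr3*, *Plvap* and *Myh11* in each mouse (points, numbered by replicate), with bars at the mean and whiskers of 1 SD (n = 3). The points of the groups lie apart for *Eng*, *Angpt1* and *Myh11*, and Tributyrin mouse 1 lies below the other Tributyrin mice for *Vwf*, *Npr3*, *Plvap* and *Myh11*.

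For both adhesion genes of the junctions among the 10, *Pecam1* and *Cdh5*, the groups overlapped. *Pecam1* (ENSMUSG00000020717, chr11:106654217-106750628, minus strand) had 3513, 3724 and 3482 normalized counts with vehicle and 3305, 3877 and 3837 with Tributyrin. The Tributyrin values surrounded those of the vehicle mice, with means of 3673 ± 320 and 3573 ± 132 (SD, n = 3), and the log2 fold change was 0.04 (standard error 0.080, 95% interval -0.14 to 0.22). *Cdh5* (ENSMUSG00000031871, chr8:104101625-104144511, plus strand) had 4229, 4623 and 4086 with vehicle and 4050, 4463 and 4130 with Tributyrin (log2 fold change -0.03, standard error 0.076). Of 7 other junction genes, 3 were higher and 4 lower, with 0 at an unadjusted p under 0.05. *Ctnnb1*, which encodes the beta-catenin that binds VE-cadherin, was at -0.10 (standard error 0.083), and *Jam2*, an adhesion molecule of endothelial junctions, was at 0.07 (standard error 0.063) with groups that did not overlap, 4054 to 4157 normalized counts with vehicle and 4253 to 4412 with Tributyrin. *Emcn* (ENSMUSG00000054690, chr3:137341067-137432185, plus strand) had 654.8, 749.0 and 670.9 with vehicle and 674.2, 769.3 and 700.9 with Tributyrin, and the groups overlapped (log2 fold change 0.05, standard error 0.090).

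The 10 genes varied in different ways across mice. Their summed normalized counts were 25660, 25840 and 26060 in the vehicle mice and 24650, 28260 and 26510 in the Tributyrin mice, so the vehicle mice were close together and the Tributyrin mice held both the lowest and the highest sum. In Tributyrin mouse 2 all 10 genes were above their own mean over the 6 mice, with a median deviation of 0.095 on the log2 scale, and in Tributyrin mouse 1 this held for 3 of 10, where *Pecam1*, *Cdh5*, *Flt1*, *Tie1* and *Vwf* had their lowest value. *Tek* went the other way in that mouse, with a deviation of 0.23. The SD of the log2 values was larger among the Tributyrin mice than among the vehicle mice for 6 of 10 genes. The distance from the lowest to the highest mouse was 0.19 for *Cdh5*, 0.43 for *Flt1* and 0.88 for *Vwf* on the log2 scale. How far the dependence on transcript length and GC content given above enters these deviations was not tested.

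**Figure D4:**
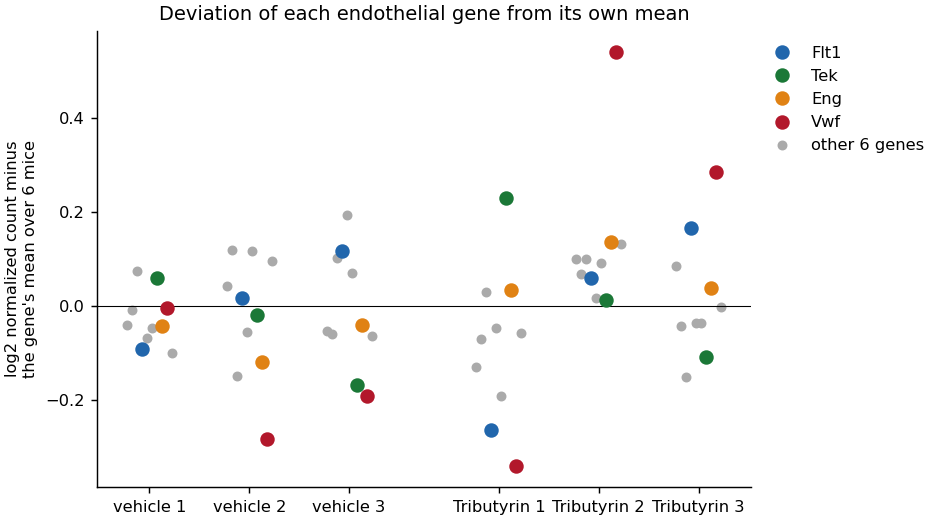
Deviation of each of the 10 endothelial genes from its own mean over the 6 mice (log2 normalized counts, 1 point per gene, shifted sideways within a mouse), with *Flt1*, *Tek*, *Eng* and *Vwf* in colour and the other 6 genes in grey. All points of Tributyrin mouse 2 are above 0, and *Vwf* runs from -0.34 in Tributyrin mouse 1 to 0.54 in Tributyrin mouse 2.

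Transcription factors of the endothelium were likewise without a call. Of the 11 tested, 4 were higher and 7 lower, with log2 fold changes from -0.14 to 0.11 and 0 at an unadjusted p under 0.05. *Erg*, the ETS factor with the lowest p, was at -0.14 (standard error 0.098), *Ets1* at -0.06 (standard error 0.095) and *Klf2*, the flow-induced factor, at -0.05 (standard error 0.138). Of 6 Notch genes of vessels, 2 were higher and 4 lower. *Notch1* and *Notch4*, receptors of arterial endothelium, were at -0.04 (standard error 0.156) and -0.01 (standard error 0.233), while the Notch target *Hey1* was at 0.35 (standard error 0.190, unadjusted p 0.093 in edgeR's model). Over all pathway lists, 48 of 53 genes passed the low-count filter, 18 were higher and 30 lower, and 2 had an unadjusted p under 0.05, *Angpt1* above and *Nrp2* below the vehicle mice. Over the same lists the groups did not overlap for *Angpt1* and *Jam2*, higher with Tributyrin, and *Smad1*, a transducer of bone morphogenetic protein signals, lower, which is 3 of 48 genes where 8.91% of all genes tested showed this. The share of 2 in 48 is near the 4.25% of all genes, and 0 passed an FDR of 10%.

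The subtypes of endothelium gave no common direction. Of 9 capillary genes, 4 were higher and 5 lower. *Fabp4*, a fatty acid binding protein of capillary endothelium and of fat cells, had 8178, 8206 and 7838 normalized counts with vehicle and 9293, 8595 and 11430 with Tributyrin, with no overlap (log2 fold change 0.28, standard error 0.099, unadjusted p 0.0182 and adjusted p 0.999 from edgeR's quasi-likelihood test). *Cd36*, the fatty acid translocase, which cardiomyocytes express too, was at 0.12 (standard error 0.072). Among 4 arterial genes 3 were higher, led by *Gja5*, a connexin shared with conduction tissue, at 0.43 (standard error 0.199). Of the 3 venous genes tested 1 was higher and 2 lower, and *Nr2f2*, a transcription factor of venous identity also active in atria, was at -0.19 (standard error 0.099) with no overlap between groups. The 3 endocardial genes were all higher, without a call. Of the 24 subtype genes tested, 1 had an unadjusted p under 0.05 in edgeR's model, against 4.25% of all genes tested. The groups did not overlap for 1 higher and 1 lower of the 24, *Fabp4* and *Nr2f2*, where 8.91% of all genes tested showed this.

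Markers of other cells of the ventricle differed in their own ways beside the endothelial genes. The summed level of 8 cardiomyocyte genes was 1408000 to 1462000 normalized counts with vehicle and 1338000 to 1486000 with Tributyrin. Of these, *Tnnt2*, *Tnni3* and *Pln* were higher and *Actc1* lower at an unadjusted p under 0.05 in edgeR's model. That p was reached by 4.25% of all genes tested, and the adjusted p was 0.999 for each marker gene named in this paragraph. *Myh6*, the most abundant of the 8, was at -0.08 (standard error 0.099). For 6 fibroblast genes the sum was 19550 to 21040 and 17600 to 21160, with the collagen gene *Col1a1* and *Lum*, lumican, lower at that p, the latter at -0.31 (standard error 0.078). *Dcn* was at 0.005 (standard error 0.071) and *Col1a2* at -0.30 (standard error 0.141). For 8 smooth muscle and pericyte genes the sum was 31210 to 31930 and 31220 to 35540, with *Myh11* higher at that p. *Rgs5* was at 0.14 (standard error 0.074) and *Abcc9* at 0.02 (standard error 0.097). The 6 leukocyte genes summed to 4306 to 4993 and 4350 to 5122, with *Lyz2* higher at that p, and the 5 red cell genes to 12910 to 18290 and 10040 to 24730. Of 5 atrial genes *Sln*, *Myl4*, *Myl7* and *Mybphl* were lower at that p, with *Myl4* at -1.86 (standard error 0.636). For these 4 genes the groups overlapped, since vehicle mice 1 and 2 were high and vehicle mouse 3 was the lowest of all 6 mice. *Nppa* was at -0.53 (standard error 0.333) and was highest in vehicle mouse 3. The part of these cells in the endothelial values was not tested. With vehicle mice 1 and 2 left out together, which leaves 1 vehicle mouse assumed to vary like the Tributyrin mice, *Eng* was at 0.11, *Vwf* at 0.40 and the median of the 10 genes at 0.058.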

How the data were processed

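Ventricle RNA of 6 mice was sequenced as stranded mRNA libraries with single-end reads. The deposited values are raw counts of reads per Ensembl gene. STAR alignments, counted by htseq-count after adapter, quality and rRNA filters, were the authors' route to these counts. The submitters' processing notes name cutadapt 1.13, HTSeq 0.6.1p1, DESeq2 1.14.1 and the mm10 build. The strand setting and annotation release used there were not given in the sources used. Names, positions and exon lengths came from GENCODE M21 (GRCm38), with 54165 identifiers matched, and promoters from RefSeq. 1 listed gene, *Ccl21a*, was not matched and has no value here.

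From the counts, edgeR 4.0.16 (R 4.3.3) compared the groups with TMM scaling, filterByExpr (minimum count 10, minimum total 15), the quasi-likelihood test and Benjamini-Hochberg adjustment over 14133 genes. Standard errors are the fold change over the root of the F statistic, and intervals are at 95%. Size factors came from DESeq2 1.42.0. Single genes and ratios were compared by exact permutation, two-sided (scipy 1.17.1). Nothing says whether the mice shared cages or litters, and p-values measure the spread between these samples. No pair of libraries agreed within sampling noise (chi-square per degree of freedom 7.40 to 31.84).

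Replicate numbers were shared between the groups, but the deviations of same-numbered mice correlated at 0.21, 0.04 and 0.01 and the numbers were not taken as pairs. The fits were tested on simulated data. Alternatives were other scalings, other filters, DESeq2, limma-voom 3.58.1, a replicate block and leaving out each mouse. The members, gene lists and tests were chosen with earlier results of these data known. The naming rule took the 10 endothelial genes, the VEGF and angiopoietin lists, and in each other list the 2 most abundant and the gene with the lowest p. The text does not follow it in full. Genes of the rule that are not described are *Rab27a*, *Sema3g*, *Efnb2*, *Ephb4*, *Vcam1*, *Mmrn1*, *C1qa*, *Hbb-bs*, *Hba-a1*, *Alas2* and *Eif2s3y*. *Gdf2*, *Bmp10*, *Fpgs*, *Smad1*, *Ppbp*, *Itga2b*, *Tnnt2*, *Tnni3*, *Col1a1*, *Sln*, *Mybphl*, *Nppa* and *Xist* were named outside this rule, after their values were seen.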

Additional observations from a re-analysis of the deposited data

How the results depend on the processing

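With 3 mice in each group these data cannot show small differences. The 95% intervals of the 10 endothelial genes had half-widths of 0.151 to 0.40 on the log2 scale, and no exact permutation p could fall under 0.1. The count of endothelial genes called at an FDR of 10% was 0 in the main edgeR fit, under every other scaling, the stricter filter, DESeq2, limma-voom, the replicate block and with any mouse left out, and 1 (*Vwf*) without the filter on low counts, where 1 pathway gene (*Angpt1*) and 0.653% of all genes were also called. The cause was not tested. At an unadjusted p under 0.05 the count of endothelial genes was 0, or 1 without the filter and by DESeq2, and 0 to 1 with each mouse left out (*Vwf*, without Tributyrin mouse 1). For pathway genes this count was 2, or 3 with library size alone (*Jam3* added) and with the replicate block (*Hey1* added), and 5 without the filter. With single mice left out it was 1 (without vehicle mouse 3) to 5 (without Tributyrin mouse 1), with 4 without Tributyrin mouse 2. The share of all genes at that p was 5.65% with library size alone, 5.17% with the block and 4.6% without the filter. This share was 2.68% without vehicle mouse 3, 3.74% without Tributyrin mouse 1 and 9.56% without Tributyrin mouse 2. The setting with the atrial-rich vehicle mice 1 and 2 left out together was added after seeing the data. The count of endothelial genes without overlap between groups was 1, or 0 with library size alone, and 1 to 3 with each mouse left out, with 2 without vehicle mouse 2 or 3 and 3 without Tributyrin mouse 1. With 5 mice the share of all genes without overlap was itself 15.2% to 27.3%, and 16.8% without Tributyrin mouse 1.

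Library size alone lowered the median of all genes to -0.074 and turned *Pecam1* to -0.033 and *Emcn* to -0.025 on the log2 scale (differences of -81.9 and -11.6 scaled counts), and *Cdh5* was at 0.042 with vehicle mice 1 and 2 left out. When single mice were dropped the log2 fold change crossed 0 for *Pecam1* (-0.0026 to 0.116), *Cdh5* (-0.078 to 0.020), *Kdr* (-0.091 to 0.057), *Flt1* (-0.103 to 0.104), *Flt4* (-0.088 to 0.043), *Tek* (-0.0017 to 0.17) and *Emcn* (-0.012 to 0.11). It did not for *Tie1* (-0.16 to -0.013), *Eng* (0.103 to 0.162) and *Vwf* (0.158 to 0.582). The median of the 10 genes lay between -0.059 and 0.058 over the settings run, and was below 0 with library size alone (-0.059) and without Tributyrin mouse 2 (-0.031). With the replicate number as a block *Eng* was at 0.139 (adjusted p 0.987), *Vwf* at 0.329 (adjusted p 0.98) and *Angpt1* at 0.445 (adjusted p 0.291) by edgeR's quasi-likelihood test, and the block changed no call of an endothelial or pathway gene at an FDR of 10%, while it called 2 of all 14133 genes.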
